A study of Mus musculus with 21 samples.

Results

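The comparison was between mouse CD8 T cells cultured to day 10 with a low dose of IL-15 and cells cultured to day 10 with the same number of units of IL-2. All cells of the library titled for IL-15 at 5 IU/mL and of the library titled for IL-2 at 5 IU/mL were taken, 5451 and 6382 cells, which made 11833 of the 106458 cells of the series. The cells were OT1 cells, which carry 1 transgenic T cell receptor against a peptide of ovalbumin. Both groups started as naive CD8 T cells, were stimulated on day 0 by beads coated with anti-CD3 and anti-CD28, and differed in the label only by the cytokine, wild type IL-2 or IL-15. The series held 21 libraries, each of a condition of its own: naive cells, and activated cells with IL-2, IL-15, a mutant IL-2 called IL-2v or no added cytokine. Each condition had 1 library, so no difference had a replicate check, no test was possible, and every interval covers counting error only. The molar amount behind 5 IU/mL of each cytokine was not given in the sources used here.

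IL-2 and IL-15 are related cytokines that signal through the same pair of receptor chains, the beta chain (Il2rb) and the common gamma chain (Il2rg), which pass the signal through the kinases JAK1 and JAK3 to the transcription factor STAT5. Each has an alpha chain of its own, Il2ra for IL-2 and Il15ra for IL-15, which raises the affinity for its ligand. In CD8 T cells IL-2 is known for driving effector differentiation and cytotoxic granules, and IL-15 for maintaining memory cells.

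The IL-15 library held 23311265 counts of unique molecular identifiers (UMIs, each marking 1 captured RNA molecule), with a median of 3927 per cell, and the IL-2 library held 29770050 with a median of 4118. No cell was removed by the limits on depth and mitochondrial UMIs. The pair shared 9 cell barcodes, and other pairs of libraries shared 1 to 19. T cell and CD8 genes marked both libraries: after each cell was thinned to 2000 UMIs, 90.7% of IL-15 cells and 93.1% of IL-2 cells had a UMI of Cd3d, and 79.9% and 51.3% had one of Cd8b1. Summed levels of the marker lists of other cells were 2.79 and 8.67 CPM (UMIs scaled to a fixed library total) for 4 CD4 T cell genes in the IL-15 and IL-2 library, 5.32 and 9.04 CPM for 8 B cell genes, 70.7 and 124.8 CPM for 9 myeloid genes, and 1.46 and 15.4 CPM for 6 dendritic cell genes. The defining B cell gene Ms4a1 and the myeloid gene Lyz2 were at 0 in both, and Cst3 gave most of the myeloid sum. Ribosomal protein genes took 41.1% of all UMIs in the IL-15 library, 32.0% in the IL-2 library and 37.4% in naive cells.

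Across the genome, many more genes were lower with IL-15 than higher. UMIs were summed over the cells of each library and scaled to CPM, and 5820 genes reached 20 CPM in either library. Of these, 141 genes (2.42%) were at least 2-fold higher with IL-15 and 535 (9.19%) at least 2-fold lower, on a log2(CPM + 1) scale, where changes of genes with low levels come out too small. The median log2 difference (IL-15 minus IL-2) of all 5820 genes was -0.09. With library totals taken without ribosomal protein and mitochondrial genes, which raises every CPM and brought 7400 genes to the 20 CPM limit, the median was 0.15 and the split was 345 higher and 527 lower. The share of higher genes among those called was 39.6% over these 7400 genes and 20.9% over the 5820. Of the 535 lower genes 404 were also lower on that scaling. It raises CPM more in the IL-15 library than in the IL-2 library. All 141 higher genes therefore stayed higher by construction, which is no check on them. A gene that reached 20 CPM in only 1 of the libraries entered through the library where it was high, which bears on every count of list members given here. Each such count for this pair is to be read beside the 2.42% higher and 9.19% lower of all genes.

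**Figure D1:**
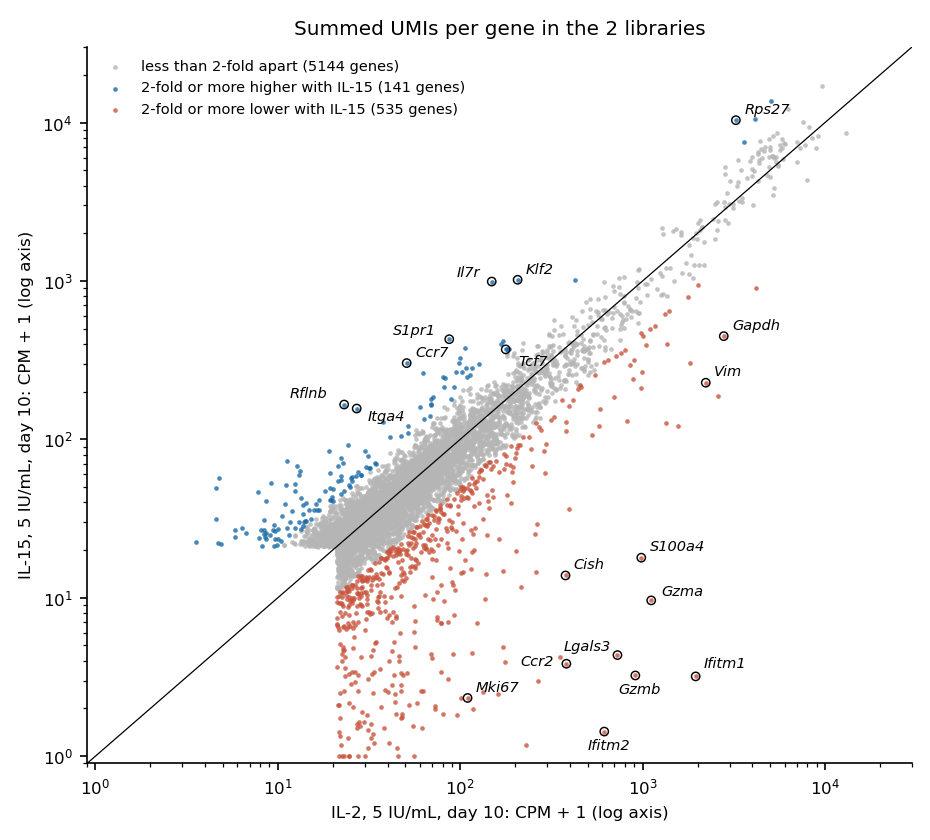
Each point is 1 of the 5820 genes, placed by its level (CPM + 1, log axes) in the IL-2 library (x axis) and the IL-15 library (y axis), with the diagonal marking equal levels. The 141 higher and 535 lower genes are coloured; Il7r, Klf2, Ccr7 and S1pr1 lie above the diagonal, and Ifitm1, Gzmb, Gzma and Lgals3 lie near the bottom right.

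Granule genes showed some of the widest gaps. Gzmb, which encodes the protease granzyme B that cytotoxic cells inject into targets, was at 2.23 CPM in the IL-15 library and 912 CPM in the IL-2 library, a 409-fold difference (95% counting interval 312 to 547). Gzma, encoding granzyme A, was at 8.62 and 1114 CPM, 129-fold lower with IL-15. Naive cells held 6.50 CPM of Gzmb and 32.5 CPM of Gzma, so the library sum with IL-15 was below the naive sum for both. A Gzma UMI was found in only 0.426% of thinned IL-15 cells and 1.07% of naive cells. Gzmc had no UMI in the IL-15 library and 55.1 CPM in the IL-2 library, a ratio of 428 when set against a floor of 3 UMIs in the library. The lower end of its 95% counting interval was 347.5-fold. In thinned cells a Gzmb UMI was found in 0.445% of IL-15 cells (exact Clopper-Pearson 95% interval 0.285 to 0.661), 55.1% of IL-2 cells (53.8 to 56.3) and 0.738% of naive cells (0.509 to 1.035), whose median depth was 3799 UMIs, so the intervals of IL-15 and naive cells overlapped. Of the 16 genes of the granule and killing list, 10 reached the level needed, and 7 of those were lower and 0 higher with IL-15. Fasl, the death ligand, was 13.2-fold lower (5.88 against 77.7 CPM), the pore former Prf1 2.73-fold lower (9.74 against 26.6 CPM), and Nkg7 (493 against 1091 CPM) and the granule proteoglycan Srgn (305 against 614 CPM) were near the 2-fold limit. The remaining members, Ctsw, Lamp1 and Cst7, had log2 differences of -0.10, -0.30 and -0.48.

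The STAT5 list, 15 genes listed as targets of STAT5 or as its feedback inhibitors, all reached 20 CPM, and 12 were lower and 0 higher with IL-15, with a median log2 difference of -2.31. Cish, a feedback inhibitor induced by STAT5, was at 12.8 CPM with IL-15 and 377 CPM with IL-2 (29.4-fold, interval 26.2 to 33.1), and at 4.71 CPM in naive cells. Socs2, of the same inhibitor family, was at 3.48 and 115 CPM (33.0-fold), and Socs1 at 105 and 525 CPM (4.99-fold). A Cish UMI was present in 2.13% of thinned IL-15 cells and 52.1% of IL-2 cells. Lrrc32 had no UMI in the IL-15 library and 44.7 CPM in the IL-2 library, a ratio of 347 against the floor of 3 UMIs. The survival gene Bcl2 was lower by a smaller factor, 517 against 1173 CPM (2.27-fold), and both were above the 191 CPM of naive cells. Kinase gene Pim1 (127 against 380 CPM) and Myc, which drives growth (80.6 against 200.3 CPM), were 3.00-fold and 2.49-fold lower. Mcl1, Socs3 and Pim2 had log2 differences of 0.08, -0.31 and -0.69.

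The promoter windows of Cish, Gzmb and Il7r are shown because these genes carry the 3 contrasts described here (STAT5 feedback, granules and the interleukin receptors), and because each window holds the letters TTCNNNGAA, the palindromic core that STAT5 binds, which reads the same on both strands. The windows are RefSeq sequence of GRCm38.p6, from 250 bases before to 50 bases after the annotated start, on the gene's strand, with motif matches in capitals.
Cish (chr9:107296409-107296708, plus strand): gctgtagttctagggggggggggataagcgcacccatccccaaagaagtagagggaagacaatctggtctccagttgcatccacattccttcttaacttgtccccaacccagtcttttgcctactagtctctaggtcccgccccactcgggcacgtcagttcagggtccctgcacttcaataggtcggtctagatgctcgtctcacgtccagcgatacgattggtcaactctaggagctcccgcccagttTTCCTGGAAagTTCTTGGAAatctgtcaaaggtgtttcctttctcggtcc
Gzmb (chr14:56262285-56262584, minus strand): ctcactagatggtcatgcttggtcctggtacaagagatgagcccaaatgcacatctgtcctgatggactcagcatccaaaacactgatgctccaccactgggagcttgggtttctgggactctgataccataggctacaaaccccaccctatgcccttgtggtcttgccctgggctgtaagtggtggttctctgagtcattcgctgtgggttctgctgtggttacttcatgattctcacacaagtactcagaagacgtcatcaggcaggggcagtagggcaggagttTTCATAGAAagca
Il7r (chr15:9529827-9530126, minus strand): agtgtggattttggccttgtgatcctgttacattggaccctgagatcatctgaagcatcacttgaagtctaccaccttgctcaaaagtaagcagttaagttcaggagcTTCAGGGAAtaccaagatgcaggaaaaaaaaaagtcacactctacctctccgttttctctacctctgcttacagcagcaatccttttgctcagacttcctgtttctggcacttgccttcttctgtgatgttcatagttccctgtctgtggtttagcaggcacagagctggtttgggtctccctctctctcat
The Cish window held 2 matches, the first beginning at the annotated start and the second 11 bases after it. Gzmb had 1 match 37 bases after the start, and Il7r had 1 match 142 bases before it. These positions hold for the RefSeq start only. By the outer gene bounds of GENCODE vM21, the Gzmb window lies wholly before the gene. The Cish and Il7r windows lie wholly inside theirs. Of the STAT5 list, 11 genes had a window, and Cish and Socs3 were the 2 with a match. For sets of genes, each gene with a window was counted once, by its window with the most matches. A match was found for 10.7% of the lower genes (45 of 419), 8.65% of the higher genes (9 of 104) and 8.20% of genes tested (385 of 4693). Counted per window, which is a different measure, it was found in 8.30% of all 32851 windows. A match describes letters in a window and shows no binding.

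Receptor genes of the interleukins split into both directions. Il2ra, the alpha chain of the IL-2 receptor, was at 16.4 CPM with IL-15 and 106 CPM with IL-2 (6.44-fold), against 5.63 CPM in naive cells. The shared beta chain gene Il2rb was at 134 and 256.5 CPM and missed the 2-fold limit with a log2 difference of -0.93, and Il15ra was at 14.7 and 13.6 CPM, below the level at which genes were compared. Il2rg was at 302 and 207 CPM, an uncertain value because part of its sequence or exons is shared with another annotated gene. In the list of 18 receptor and signalling genes, 16 were compared, 2 were higher and 7 lower, beside 2.42% and 9.19% of all genes. The 2 higher genes encode the IL-6 receptor: Il6ra was at 39.9 and 7.59 CPM (5.26-fold) and Il6st at 46.1 and 11.4 CPM (4.04-fold), with 116 and 132 CPM in naive cells. The lower genes included the IL-18 receptor chains Il18rap (6.52 against 73.8 CPM) and Il18r1 (25.7 against 114 CPM), the IL-12 receptor chain Il12rb1 (2.62 against 22.3 CPM) and Jak3 (10.6 against 27.6 CPM). Jak1 had a log2 difference of -0.05. Stat5a, at 19.6 and 18.5 CPM, stayed just under the level needed.

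Il7r and some genes of lymph node homing and egress were among the highest with IL-15. Il7r, the IL-7 receptor chain that marks naive and memory T cells, was at 991 CPM with IL-15 and 148 CPM with IL-2 (6.70-fold, interval 6.49 to 6.92), against 446 CPM in naive cells. Ccr7, the chemokine receptor that brings T cells into lymph nodes, was at 302 and 49.9 CPM (6.05-fold). S1pr1, the receptor that lets T cells leave lymph nodes, was at 428 and 86.1 CPM (4.97-fold), and the integrin gene Itga4 at 156 and 26.1 CPM (5.97-fold). In naive cells Ccr7, S1pr1 and Itga4 were at 241, 448 and 196 CPM. The list, which also holds the cytokine receptor gene Il7r, had 12 genes compared, with 5 higher and 2 lower, and 4 higher of 11 without Il7r. The 2 lower genes were Cd44, the adhesion molecule used as a marker of antigen experience, at 11.6 and 89.7 CPM (7.74-fold lower), and Itgal at 77.5 and 176 CPM. The library sum of Cd44 with IL-15 was also below the 25.1 CPM of the naive library. A Cd44 UMI was found in 2.50% of thinned IL-15 cells and 3.91% of naive cells. The list's median log2 difference was 0.05, and -0.05 without Il7r, which was left out after the values were seen. Without it the members summed to 2343 CPM with IL-15 and 1919 CPM with IL-2, against 3333 and 2067 CPM with it.

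Transcription factors known from naive and memory T cells were mostly level or higher. Klf2, which drives S1pr1, was at 1016 CPM with IL-15 and 205.4 CPM with IL-2 (4.95-fold), and its relative Klf3 at 82.96 and 18.2 CPM (4.57-fold). Tcf7, encoding TCF-1, a factor of stem-like T cells, was at 369 and 177 CPM (2.09-fold, interval 2.02 to 2.16), and its partner Lef1 at 349 and 179 CPM, a log2 difference of 0.96 that missed the limit. Id3 was at 103 and 40.2 CPM (2.56-fold). Eomes, a T-box factor of memory and effector CD8 cells, went the other way, at 14.2 against 113 CPM (7.99-fold lower). Of 14 genes compared, 4 were higher and 1 lower, beside 2.42% and 9.19% of all genes, and 12 had a positive difference. Foxo1 and Satb1 had log2 differences of 0.09 and -0.39.

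Effector transcription factors were mostly lower with IL-15. Id2, an inhibitor of E proteins that supports effector cells, was at 129 and 816 CPM (6.34-fold). Bhlhe40 was 26.4-fold lower (3.43 against 90.5 CPM), Irf8 21.8-fold lower (3.17 against 69.1 CPM) and Nfil3 11.5-fold lower (3.60 against 41.3 CPM). Batf, which pairs with IRF factors, was at 16.4 and 56.5 CPM. Tox, known from chronically stimulated T cells and also present in naive cells here at 93.6 CPM, was higher, at 21.0 and 3.69 CPM. Of 9 genes compared, 5 were lower and 1 higher, beside 9.19% and 2.42% of all genes. Tbx21 and Prdm1, which encode the effector factors T-bet and Blimp-1, stayed below 20 CPM in both libraries.

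Activation receptors and secreted factors followed the same direction in part. Cd69, an early activation marker that also holds cells in tissue, was at 10.6 CPM with IL-15 and 213 CPM with IL-2 (20.1-fold). Tnfrsf9, encoding the costimulator 4-1BB, was at 0.858 and 43.3 CPM (50.4-fold). Among 9 costimulatory genes compared, these and the uncertain Tnfrsf18 were lower, while Cd28, Cd27, Icos and Cd226 had log2 differences between 0.07 and 0.18. Of the inhibitory receptors, Cd160 was at 5.92 and 123 CPM and Entpd1 at 4.12 and 20.9 CPM, both lower, and Ctla4 at 52.2 and 32.3 CPM was the other gene compared. Tnf was 32.4-fold lower (2.40 against 77.9 CPM) and Lta 9.52-fold lower (8.49 against 80.8 CPM). The chemokine gene Ccl5, abundant in memory CD8 cells, was at 1042 and 737 CPM, a log2 difference of 0.50, with 885 CPM in naive cells. A Ccl5 UMI was present in 23.6% of thinned IL-15 cells, 40.6% of IL-2 cells and only 10.1% of naive cells. Between IL-15 and IL-2 the share and the summed level ran in opposite orders, so no direction is given.

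Of 12 killer lectin and NK receptor genes 3 were compared, and all 3 were lower, while 4 of the 5 chemokine receptor genes compared were lower. Klrd1, the CD94 chain, was at 183 and 694 CPM (3.80-fold), and Klrk1, encoding the activating receptor NKG2D, at 11.1 and 90.8 CPM (8.17-fold). Klrb1c, an uncertain gene that shares sequence with other annotated genes, had no UMI in the IL-15 library and 655 UMIs in the IL-2 library. The 4 NK cell markers summed to 0 CPM in the IL-15 library and 22.04 CPM in the IL-2 library, nearly all of it Klrb1c, and the defining gene Ncr1 had 0 UMIs and 1 UMI. Of the gamma delta T cell markers, Tcrg-C1 was at 0.643 and 28.8 CPM and Trdc at 264 and 294 CPM, and the list summed to 270.4 and 339 CPM. Among chemokine receptors, Ccr2, which leads cells to inflamed tissue, was at 2.83 and 381 CPM (135-fold, interval 106 to 174). Cxcr6 was at 237 and 345 CPM, and Cxcr3 from the homing list at 106 and 135 CPM, neither past the 2-fold limit.

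The lowest gene on the log2(CPM + 1) scale was Ifitm1, an interferon-induced membrane protein, at 2.19 CPM with IL-15 and 1953 CPM with IL-2 (893-fold, interval 679 to 1199). Ifitm1 had 51 UMIs in the whole IL-15 library, in 0.111% of thinned cells, against 46.6% of IL-2 cells and 0.0895% of naive cells. Its neighbours Ifitm2 (0.429 against 615 CPM) and Ifitm3 (0.172 against 230 CPM) had larger ratios of CPM (1434 and 1339, on 10 and 4 UMIs in the IL-15 library), but they share sequence or exons with other genes and are uncertain. Of 18 other interferon response genes compared, 3 were lower (Rtp4, Isg15 and Irf7, between -1.29 and -1.54 on the log2 scale), beside 9.19% of all genes, and 15 were neither. The median was -0.47, or -0.21 with totals without ribosomal protein and mitochondrial genes.

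Genes of the S100, galectin and annexin list were also far lower. Lgals3, encoding galectin-3, was at 3.35 and 727 CPM (217-fold), Anxa2 at 3.22 and 351 CPM (109-fold), and Anxa1 at 0.815 and 94.6 CPM (116-fold). S100a6, a calcium-binding protein, was at 187 and 2583 CPM (13.8-fold), Lgals1 at 120 and 1564 CPM (13.1-fold) and the filament gene Vim at 227 and 2219 CPM (9.78-fold). In naive cells these last 3 genes were at 176, 204 and 268 CPM, and Lgals3 and Anxa2 at 11.9 and 25.1 CPM. Of these 5 genes, all but S100a6 had a lower library sum with IL-15 than in naive cells. Per thinned cell, the list had a median of 5 UMIs in both. Its 95th percentile was 12 with IL-15 and 15 in naive cells. S100a4 was at 16.9 and 983 CPM but shares much of its sequence with another annotated gene and is uncertain. Of 15 genes compared, 11 were lower and 0 higher. The metallothionein gene Mt1, a zinc-binding protein, was at 3.90 and 171 CPM (43.8-fold).

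Glycolysis genes were lower nearly throughout: 18 of 21 genes compared were lower and 0 higher, with a median log2 difference of -1.90. Aldoa was at 304 and 1824 CPM (5.99-fold), Tpi1 at 35.2 and 394 CPM (11.2-fold) and Ldha, which makes lactate, at 239 and 886 CPM (3.71-fold). Naive cells were at 223, 29.9 and 257 CPM for the same 3 genes. The lactate exporter Slc16a3 was at 2.36 and 46.5 CPM (19.7-fold), Hk2 at 5.75 and 25.6 CPM (4.45-fold) and the glucose transporter Slc2a1 at 12.2 and 34.8 CPM (2.85-fold). Gapdh (447 against 2785 CPM) and Pgk1 (125 against 1346 CPM) have pseudogene-like copies and are uncertain. The 3 genes not past the limit were Hk1, Hif1a and Pdk1, at -0.76, -0.57 and 0.33. Pdk1 restrains the use of pyruvate inside mitochondria.

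Few genes of mitochondrial respiration were called. Of 52 oxidative phosphorylation genes, 1 was higher (Ndufa4, 297 against 125 CPM), 1 lower (Atp5d, 255.3 against 550.0 CPM) and 50 neither. Their median of -0.12 was close to that of all genes and turned to 0.10 against IL-2 cells without a granzyme UMI, so no direction is given. Of 13 genes encoded in mitochondria, which this list leaves out, 2 were higher, beside 2.42% of all genes, and 0 lower. The 2 were mt-Nd4l (302 against 97.9 CPM) and mt-Atp8 (108 against 50.6 CPM). Their neighbours mt-Nd4 (2091 against 2054 CPM) and mt-Atp6 (7267 against 7755 CPM) were nearly level, with log2 differences of 0.03 and -0.09. The median of the 13 was 0.11, so no direction is given for them. Fatty acid oxidation had 5 of 13 genes lower and cholesterol synthesis 5 of 10, including Mvk (5.62 against 22.1 CPM) and Idi1 (6.48 against 20.02 CPM). Amino acid and one carbon metabolism had 2 of 10 lower, Atf4 and Mthfd2, beside 9.19% of all genes, and its median was near 0, so no direction is given.

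**Figure D2:**
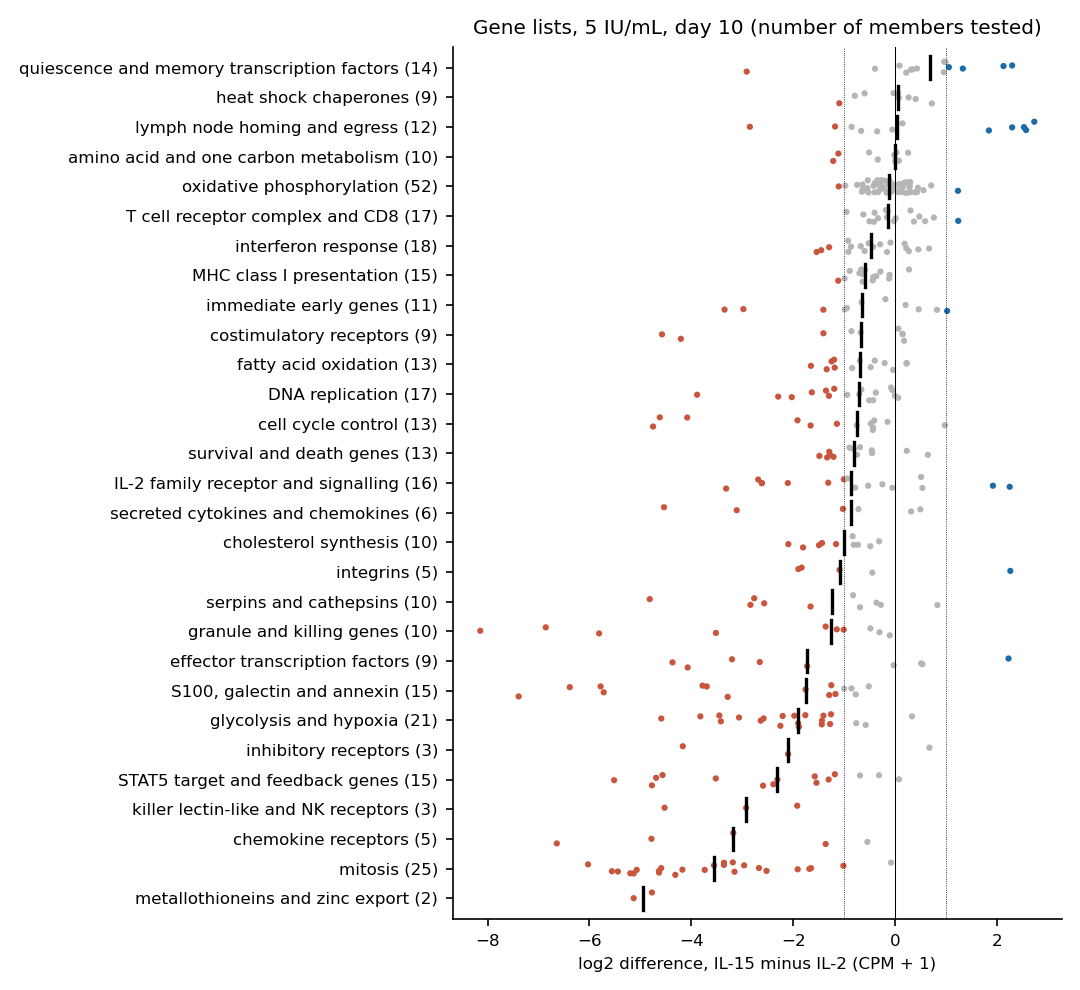
Log2 differences (IL-15 minus IL-2, CPM + 1) of the compared members of 29 gene lists, 1 point per gene, with the list median as a black bar and dotted lines at the 2-fold limits. The medians run from -4.95 for the 2 metallothionein genes compared (-2.46 with no expression filter) to 0.70 for quiescence and memory transcription factors (0.23 against IL-2 cells without a granzyme UMI), and glycolysis, STAT5 and mitosis genes lie almost wholly to the left.

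Most mitosis genes were lower with IL-15. Mki67, a marker of dividing cells, was at 1.33 CPM with IL-15 and 109 CPM with IL-2 (81.8-fold, interval 57.5 to 120.5), with 15.2 CPM in naive cells. Birc5, a mitotic survival protein, was at 1.33 and 100.1 CPM (75.3-fold), and the mitotic kinase Cdk1 at 2.27 and 42.6 CPM (18.7-fold). Of 25 mitosis genes compared, 24 were lower, and the exception was Racgap1 at 52.9 and 55.8 CPM. DNA replication genes were less uniform: 7 of 17 were lower, with Rrm2 23.2-fold lower and Mcm6 at 61.8 and 59.1 CPM. Cells with a UMI of Mki67 or Top2a among 2000 made up 2.73% of the IL-15 library (2.31 to 3.20), 11.4% of the IL-2 library (10.6 to 12.3) and 1.83% of naive cells (1.46 to 2.27). Without thinning the shares were 5.21% and 18.2%. By Mki67 alone they were 0.241%, 7.05% and 0.716%, and 134 of the 147 IL-15 cells with a UMI of either gene had Top2a and no Mki67, with no more UMIs of other mitosis genes on average than cells with neither gene. In cells without a UMI of either gene, the median of the mitosis list was -0.19 and that of DNA replication 0.33. These medians cover only the members that still reached 20 CPM. Thinned cells with neither gene had a mean of 0.314 UMIs of the other mitosis genes with IL-15 and 0.611 with IL-2, so a difference remained.

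Of 13 cell cycle control genes compared, 6 were lower and 0 higher. Cdkn1a, encoding p21, was at 0.772 and 46.7 CPM (60.4-fold lower with IL-15), and Cdkn2a, the locus of p16 and ARF, had no UMI with IL-15 and 23.6 CPM with IL-2, at least 183-fold lower. Cdkn1b, encoding p27, a brake of resting T cells, was at 203 and 102 CPM, a log2 difference of 0.98. Ccnd2 and Ccnd3, the main D cyclins of T cells, had differences of -0.15 and -0.41.

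Of 17 genes of the T cell receptor complex and CD8, 1 was past the 2-fold limit, and their log2 differences ran from -0.95 for the kinase gene Zap70 (79.0 against 154 CPM) to 1.24 for Cd8b1 (1009.6 against 426 CPM). Cd8a was at 368 and 216 CPM, a difference of 0.76. Cd3d, Cd3g, Trac, Lck and Lat lay between -0.18 and 0.01. Of 15 genes of MHC class I presentation, 1 was lower, the uncertain H2-Q6, and the median was -0.59. The median of the receptor list was -0.14 and became 0.08 with totals without ribosomal protein and mitochondrial genes.

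Other genes at the top of the ranking carry less known roles. Rflnb, encoding an actin regulator, was at 165 and 22.1 CPM (7.46-fold), and Actn1, an actin crosslinker, at 261 and 61.9 CPM (4.23-fold). Itgae, the CD103 integrin chain, was at 62.2 and 12.2 CPM (5.12-fold) with 43.8 CPM in naive cells. Art2b, a cell surface ADP-ribosyltransferase, was at 72.5 and 10.2 CPM (7.12-fold). The non-coding genes Gm43698 (55.8 against 3.76 CPM) and Gm30948 (48.6 against 3.59 CPM) had the 2 highest differences, 3.58 and 3.43.

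Within the libraries, the lists separated cells to different degrees. Among 2000 UMIs per cell, glycolysis genes gave a median of 4 UMIs in IL-15 cells (5th to 95th percentile 1 to 8), 18 in IL-2 cells (6 to 47) and 3 in naive cells. The S100, galectin and annexin list gave 5 (1 to 12), 23 (7 to 47) and 5. Of IL-2 cells, 14.8% lay at or below the 95th percentile of IL-15 cells for glycolysis and 17.0% for the S100 list. For the STAT5 list the medians were 2 and 7 with 44.7% of IL-2 cells inside that range, and for granule genes 2 and 6 with 55.2%. For mitosis genes 89.7% of IL-2 cells lay inside it. The homing list had medians of 6 (2 to 13) in IL-15 cells and 4 (1 to 9) in IL-2 cells, and without Il7r, which gave most of the difference in summed level, 4 (1 to 9) and 3 (1 to 9). The IL-15 median was reached or passed by 98.9% of IL-2 cells for glycolysis, 98.6% for the S100 list, 97.3% for the STAT5 list and 94.3% for granule genes.

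**Figure D3:**
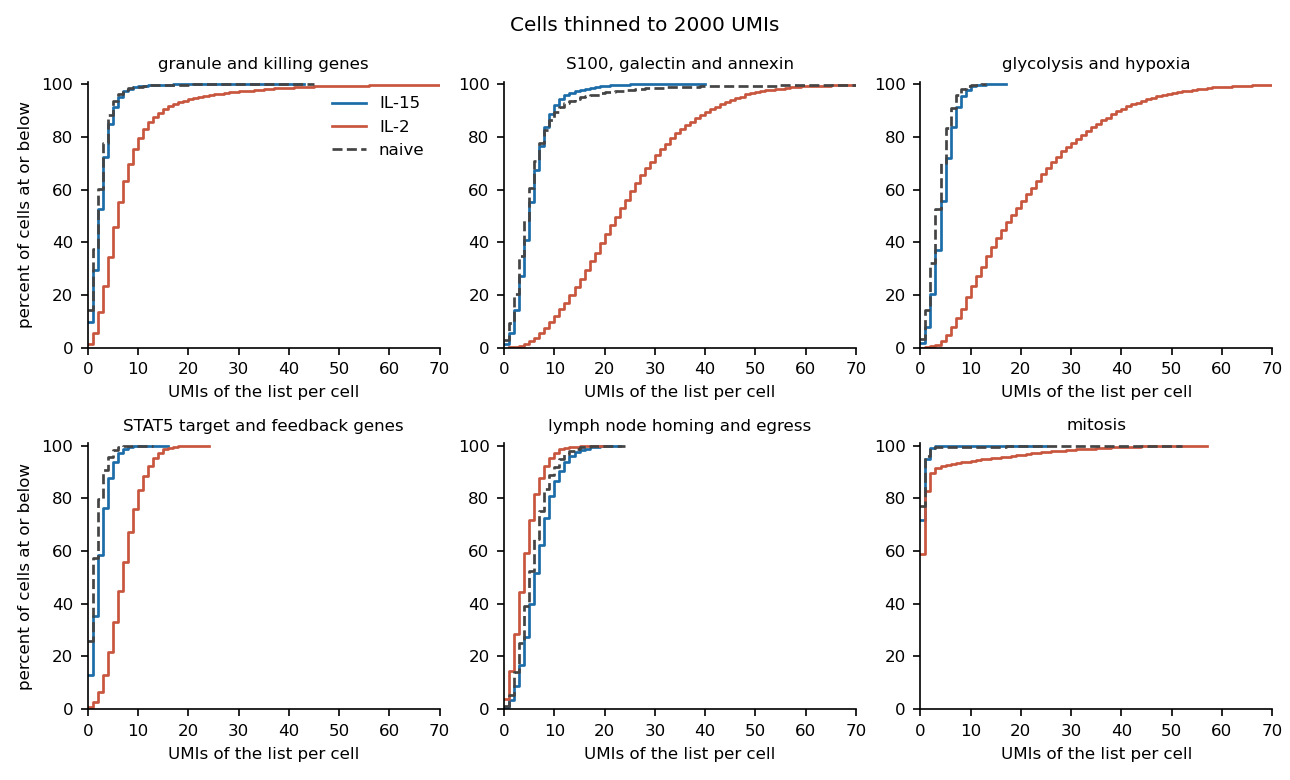
Cumulative share of cells (y axis, percent) by UMIs of each list among 2000 per cell (x axis) in the IL-15 library, the IL-2 library and naive cells. The IL-15 and naive curves run close together for granule, S100 and glycolysis genes, and the IL-2 curve is shifted to the right with medians of 6, 23 and 18.

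Granzyme UMIs varied from cell to cell in the IL-2 library. Of 6083 thinned IL-2 cells, 62.3% had a UMI of Gzma, Gzmb or Gzmc, against 0.816% of 5394 IL-15 cells and 1.61% of naive cells. Grouped by these UMIs after the data were seen, 2292 IL-2 cells had 0, 1171 had 1, 1467 had 2 to 4 and 1153 had 5 or more. Across these classes Tcf7 was at 299, 212, 145 and 47.7 CPM and Klf2 at 302, 224, 175 and 95.4 CPM. Ifitm1 ran the other way, at 767, 1170.4, 1965 and 3997 CPM. Cish was at 354, 406, 415 and 405 CPM and the glycolysis gene Tpi1 at 387, 372, 363 and 411 CPM, so these 2 varied little with the granzyme UMIs. A class of 0 also holds cells whose granzyme RNA was not captured. The part of free granzyme RNA in the classes with few UMIs was not tested, since no cells of another type were identified to measure it in.

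Against the IL-2 cells without a granzyme UMI, the IL-15 library still had 89 of 5788 genes higher (1.54%) and 388 lower (6.7%), of which 83 and 350 were among the genes called against all IL-2 cells. Glycolysis (17 of 20 lower, median -1.90) and STAT5 genes (12 of 15 lower, median -2.24) gave nearly the values seen with all cells. Granule genes, 3 of which define this class, had 1 of 6 lower and a median of -0.48, in place of 7 of 10 and -1.25. The S100 list had 10 of 15 lower. In these cells Tcf7 was at 299 CPM against 374 CPM in thinned IL-15 cells, and Il7r at 299.7 against 1033 CPM. The homing list had 5 higher here too (4 without Il7r), while quiescence factors had 2 higher in place of 4.

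**Figure D4:**
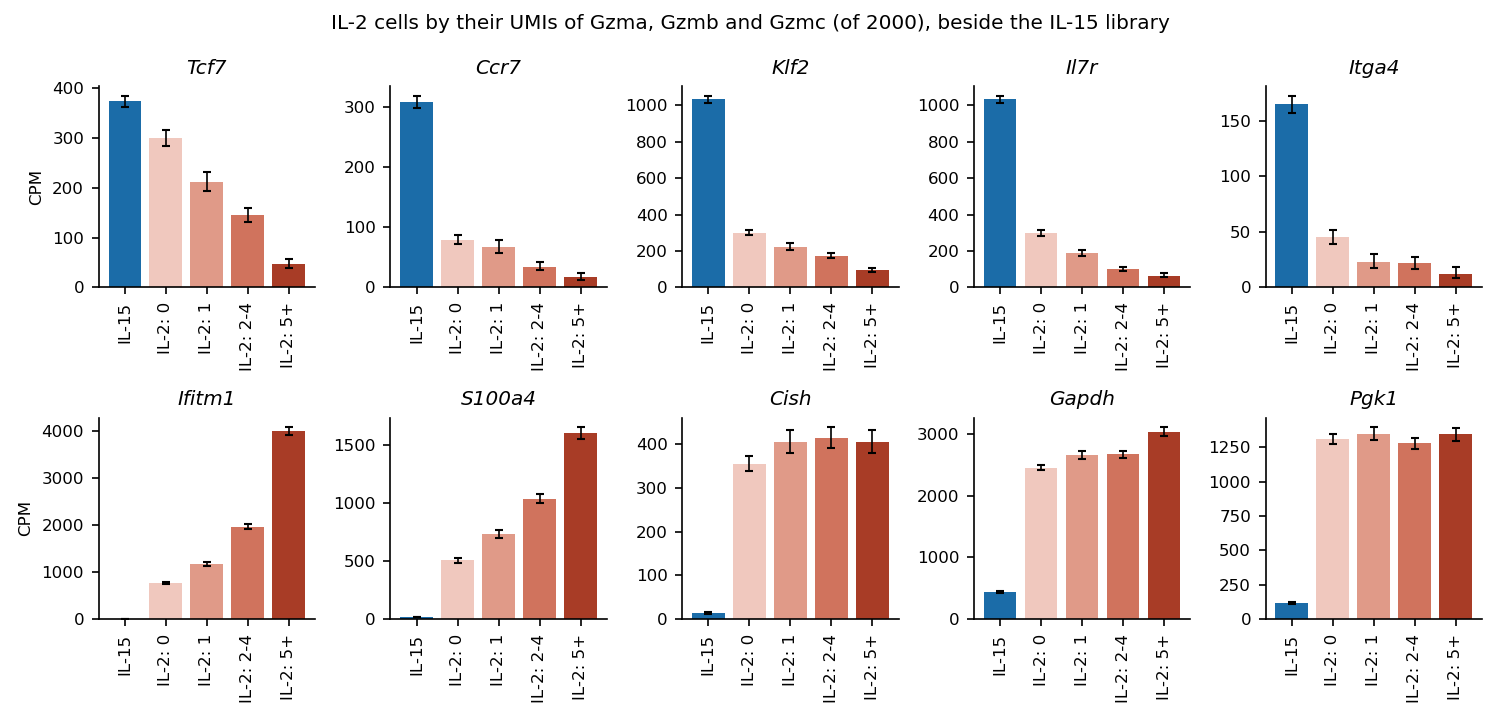
Level (CPM, from 2000 UMIs per cell) of 10 genes in the IL-15 library and in IL-2 cells grouped by 0, 1, 2 to 4 and 5 or more granzyme UMIs; whiskers are 95% Poisson intervals of counting error. Tcf7, Ccr7, Klf2, Il7r and Itga4 step down and Ifitm1 and S100a4 step up across the classes, while Cish, Pgk1 and Gapdh stay far above the IL-15 library in each class.

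The same contrast was compared in 3 other pairs, which share no library with this one or with each other. The pairs at 50 IU/mL on days 3 and 5 were not used here. At 50 IU/mL on day 10, where the treatment labels name other interleukins and the titles were followed, 548 of 5555 genes were higher with IL-15 (9.86%) and 644 lower (11.6%). At 5 IU/mL on day 5, 22 of 5167 were higher (0.426%) and 49 lower (0.948%), and on day 3, 0 of 5750 were higher (0%) and 26 lower (0.452%). Of the 141 higher genes, 67 were also higher at 50 IU/mL (47.5% of these and 12.2% of those), 6 on day 5 (4.26% and 27.3%) and 0 on day 3. Of the 535 lower genes, 197 were lower at 50 IU/mL (36.8% and 30.6%), 37 on day 5 (6.92% and 75.5%) and 14 on day 3 (2.62% and 53.8%). The 141 genes had a median difference of 1.54 at 50 IU/mL, 0.14 on day 5 and 0.11 on day 3, and the 535 had medians of -0.68, -0.35 and -0.07, beside medians of all genes of 0.05, 0.03 and -0.01.

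Counts of list members differed between the pairs, and these differences were not tested. Each count is to be read beside the share of all genes in its own pair. At 50 IU/mL on day 10 that was 9.86% higher and 11.6% lower. At 5 IU/mL it was 0.426% and 0.948% on day 5, and 0% and 0.452% on day 3. Granule genes had 11 of 14 lower at 50 IU/mL, 3 of 8 on day 5 and 0 of 7 on day 3. The homing list had 6 of 12 higher at 50 IU/mL (5 of 11 without Il7r) and 0 on days 5 and 3, where S1pr1 was at 320.1 and 352 CPM and at 164 and 126 CPM with IL-15 and IL-2. Il7r on day 5 was at 380.1 CPM with IL-15 and 559.8 CPM with IL-2, the order opposite to day 10. Glycolysis had 18 of 21 lower in this pair, 2 of 21 lower and 2 higher at 50 IU/mL, 3 of 18 lower on day 5 and 7 of 21 lower on day 3, where Slc16a3 was at 20.3 and 89.4 CPM. STAT5 genes had 4 of 15 higher and 5 lower at 50 IU/mL, and Cish was at 117 and 163 CPM there and at 18.5 and 17.2 CPM on day 5. Mitosis genes had 24 of 25 lower here, 0 of 11 lower and 2 higher at 50 IU/mL, and 0 in either direction of 26 on day 5 and of 34 on day 3.

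The order of the 6 day 10 libraries differed by gene. Ifitm1 was at 2.19 CPM with IL-15 at 5 IU/mL, 110.0 CPM with IL-15 at 50 IU/mL, 450 and 2669 CPM with IL-2v at 5 and 50 IU/mL, and 1953 and 4950.0 CPM with IL-2 at 5 and 50 IU/mL. Klf2 was at 1016 CPM with IL-15 at 5 IU/mL, 460.2 CPM with IL-15 at 50 IU/mL, 302 and 20.3 CPM with IL-2v, and 205.4 and 8.54 CPM with IL-2. Il7r, at 991 CPM, had its next highest day 10 level in the IL-2 library at 5 IU/mL, and Cish had its highest level of the 6 in that IL-2 library.

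**Figure D5:**
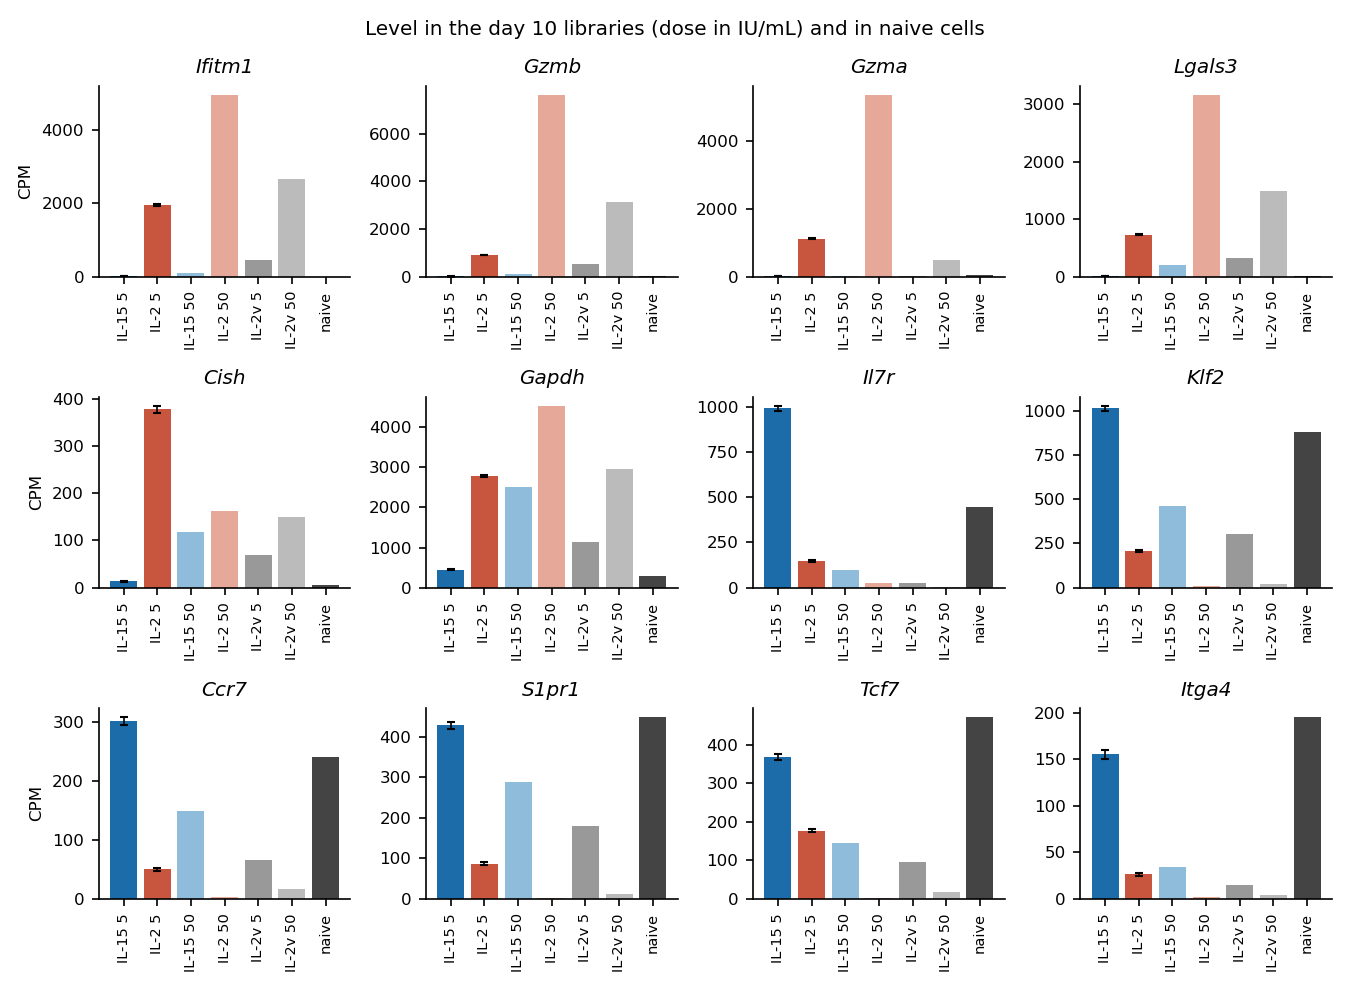
Level (CPM) of 12 genes in the 6 day 10 libraries and in naive cells (dose in IU/mL on the x axis); whiskers on the pair compared are 95% Poisson intervals of counting error. Ifitm1, Gzmb, Gzma and Lgals3 are near 0 with IL-15 at 5 IU/mL and highest with IL-2 at 50 IU/mL, and Il7r, Klf2, Ccr7 and S1pr1 are highest on day 10 with IL-15 at 5 IU/mL.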

How the data were processed

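Single-cell RNA was measured in the 2 libraries compared and in the other libraries of the series. The deposited tables hold raw UMI counts per gene and cell barcode, whole numbers for the same 17516 gene symbols in each table. Cell Ranger, Seurat 3.0.2 and 4.0.1 and the build mm10 are named in the submitters' processing notes, without their roles, and any filter on cells or removal of doublets is not given in the sources used here. The extraction protocol in the labels describes cells sorted from tumours and the growth protocol describes culture, and culture was assumed.

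Titles gave the groups. The comparison and the gene lists were chosen with earlier results of these data known. A cell needed 1000 UMIs, 500 genes and no more than 10% of its UMIs from mitochondrial genes. Sums per library were scaled to CPM and compared as log2(CPM + 1), IL-15 minus IL-2, where a gene reached 20 CPM in either library, and a gene was called at a difference of 1 or more in size. CPM had exact Poisson 95% intervals and shares had exact Clopper-Pearson 95% intervals, after each cell was thinned to 2000 UMIs, which left out 57 IL-15 cells, 299 IL-2 cells and 306 naive cells. UMIs from 1 cell share its source, so intervals cover counting error only. A count of 0 was set against a floor of 3 UMIs in the library. With 1 library per group there was no model and no p-value.

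Genes were named by a rule: the 12 highest and 12 lowest, the 6 highest and 6 lowest among genes reaching 200 CPM, and list members. Some of these are not reported here. Of 549 genes looked up in GENCODE vM21, 90 were marked uncertain because at least 20% of their 31-letter words or of their exonic bases were shared with another gene. The log2 differences and Poisson intervals were tested on simulated library sums, which held no spread between cells or cultures. Thinning was tested on cells of the IL-2 library, and the other steps were not tested in this way. Alternatives were all barcodes, at most 5% mitochondrial UMIs, no cells over 2 times the median UMIs (doublets were not otherwise treated), TMM scaling, totals without ribosomal protein and mitochondrial genes, a pseudocount of 10, mean CPM over cells, a limit of 50 CPM or none, cells without a Mki67 or Top2a UMI, thinned cells, thinning to 1000 UMIs or none, and at least 3 UMIs of the mitosis list. Mki67 alone and IL-2 cells without a granzyme UMI were added after the data were seen. Python 3.11.15, numpy 2.4.6, scipy 1.17.1 and pandas 2.3.3 were used.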

Additional observations from a re-analysis of the deposited data

Results flagged for a closer look

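Each gene here was at least 2-fold lower with IL-15 in the pair compared and at least 2-fold higher with IL-15 in another pair of the series. With 1 library per condition these differences between pairs were not tested. Differences are on the log2 scale, IL-15 minus IL-2.

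At 50 IU/mL on day 10, where 9.86% of genes were higher with IL-15, 6 list members were on the opposite side. The STAT5 feedback gene Socs1 differed by 1.67 there and -2.31 at 5 IU/mL, Myc by 2.49 and -1.30, and the survival gene Bcl2 by 1.6 and -1.18. The IL-18 receptor gene Il18r1 differed by 1.61 and -2.10. Pfkl, a phosphofructokinase gene of glycolysis, differed by 1.20 and -1.27, and the spindle gene Nusap1 by 1.39 and -4.63. Among all genes, 27 were lower here and higher there, and 0 were higher here and lower there.

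On day 5 at 5 IU/mL, where 0.426% of genes were higher, Bcl2 differed by 2.03 and on day 10 by -1.18. The DNA ligase gene Lig1 differed by 1.05 and -1.63, and the replication checkpoint gene Clspn by 1.09 and -2.29. Bcl2 in the IL-2 libraries was at 105 CPM on day 5 and 1173 CPM on day 10, and in the IL-15 libraries at 432 and 517 CPM.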

How the results depend on the processing

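The direction of the median of all genes changed in 1 alternative: with totals without ribosomal protein and mitochondrial genes it was 0.15 over 7400 genes in place of -0.09 over 5820, and 345 genes in place of 141 were higher. The number of higher genes was 82 with a pseudocount of 10 CPM, 76 among genes reaching 50 CPM, 327 with no expression filter and 89 against IL-2 cells without a granzyme UMI. Lower genes numbered 280 at 50 CPM and 1381 with no filter, in place of 535. Other counts stayed within 1.5 times. Cells with a UMI of Mki67 or Top2a, most of which in the IL-15 library had no excess of other mitosis UMIs, were, in the IL-15 and IL-2 libraries, 1.25% and 7.96% with thinning to 1000 UMIs, 5.21% and 18.2% with none. Shares were 0.890% and 10.3% by at least 3 mitosis UMIs and 0.241% and 7.05% by Mki67 alone, and the IL-2 share was 8.01% without cells over 2 times the median UMIs. The IL-2 share was the higher one under each. Of the values of genes named by their rank, 240 moved beyond their counting interval and 93 did not, such as Gzmc between -6.43 and -2.70, Ifitm2 between -9.07 and -5.91 and Gzmb between -8.29 and -6.24, and none changed direction. Of list medians, 33 moved and 315 did not, and those of homing genes (without Il7r), costimulatory receptors, T cell receptor genes, oxidative phosphorylation, amino acid metabolism, DNA replication and heat shock chaperones changed sign in at least 1 alternative. With no expression filter the medians of metallothioneins, chemokine receptors, killer lectin-like receptors, inhibitory receptors and effector transcription factors were -2.46, -1.13, -1.20, -1.11 and -0.45 in place of -4.95, -3.17, -2.92, -2.10 and -1.72, and that of granule genes was -2.40 in place of -1.25. Against IL-2 cells without a granzyme UMI those of quiescence factors, cholesterol synthesis, and serpins and cathepsins were 0.23, -0.54 and -0.59 in place of 0.70, -0.99 and -1.24. No paired analysis was possible because each group had 1 library. Genes under about 3 UMIs in a library cannot be told from 0 at this depth, and the spread between cultures is unknown.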

Other observations

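Top2a, the topoisomerase used beside Mki67 to mark dividing cells, was at 13.7 CPM in the IL-15 library, while Mki67 was at 1.33 CPM. In that library 135 thinned cells had a Top2a UMI and 1 of them also had a Mki67 UMI, against 257 of 523 in the IL-2 library and 14 of 64 in naive cells. IL-15 cells with Top2a and no Mki67 had a mean of 0.313 UMIs of the other mitosis genes, and cells with neither had 0.314. In the IL-2 library these means were 3.95 and 0.611, and in naive cells 2.44 and 0.248. Thus 134 of the 147 IL-15 cells with a UMI of either gene had, on average, no more UMIs of other mitosis genes than cells with neither.

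Ribosomal protein genes were picked by name, which also took pseudogenes such as Rpl9-ps6 and related genes such as Rps27l. Of 84 such genes, 4 were at least 2-fold higher with IL-15, beside 2.42% of all genes, and 0 were lower. Rps28 was at 10468 CPM with IL-15 and 4153 CPM with IL-2, and Rps21 at 7501 and 3582 CPM. Rps27 (10353 and 3246 CPM) and Rps29 (13648 and 5044 CPM) share sequence with other annotated genes and are uncertain. In naive cells Rps28, Rps21, Rps27 and Rps29 were at 11403, 8903, 11284 and 18228 CPM, above both libraries. The median of the 84 was 0.30, and the differences near the limit followed each other closely, with Rps21 at 1.07, Rps24 at 0.96 and Rpl35a at 0.87. Across IL-2 cells with 0, 1, 2 to 4 and 5 or more granzyme UMIs, Rps27 was at 4105, 3509, 3141 and 2888 CPM, and in thinned IL-15 cells at 10516 CPM.

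Of 11 immediate early genes compared, 3 were lower with IL-15, 1 was higher (the uncertain Zfp36l1, 180.1 against 88.04 CPM) and 7 were neither. Of all genes, 9.19% were lower and 2.42% higher. Jun was at 24.2 CPM with IL-15 and 255.2 CPM with IL-2 (10.6-fold), and Egr1 at 6.18 and 55.5 CPM (8.98-fold), while Junb and Ier2 had log2 differences of -0.94 and -0.66. Serpinb6b, a serine protease inhibitor, was at 2.06 and 85.1 CPM (41.3-fold), and 5 of 10 genes of its list were lower. Ltb4r1, a leukotriene B4 receptor, had 3 UMIs in the IL-15 library and 30.0 CPM in the IL-2 library, a ratio of 233 with a counting interval of 79.6 to 1134. The pro-apoptotic gene Bcl2l11 was 2.34-fold lower with IL-15, and Bbc3 had a log2 difference of 0.65.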
